A study of Arabidopsis thaliana with 8 samples.

Results

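TCP4, TCP9 and TCP11 are 3 endogenous Arabidopsis genes of the TCP transcription factor family, and each was measured by 1 probe set among the 22746 probe sets compared. They were chosen because the study's tables of genes changed against the empty vector name them: TCP9 (AT2G45680) for all 3 transgenes, TCP4 (AT3G15030) and TCP11 (AT5G08330) for IaTCP1 alone. Their changes against the empty vector were therefore used to choose them and are given below as a description without a test. The RefSeq annotation (assembly TAIR10.1) also lists AT5G08330 as TCP21 and as CCA1 HIKING EXPEDITION (CHE), so the locus is given with the name. Other sources use the name TCP11 for a different locus, AT2G37000, which is described below by its ID. Here TCP11 always means AT5G08330.

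The arrays compared Arabidopsis thaliana Col plants overexpressing IaTCP1, the floral symmetry gene of the crucifer Iberis amara, its Arabidopsis relative TCP1, or CYCLOIDEA (CYC) of Antirrhinum majus, each under the CaMV 35S promoter, with plants carrying the empty pBAR vector. RNA came from secondary inflorescences with closed buds, taken before anthesis, and was hybridised to Affymetrix ATH1 arrays, 2 per group and 8 in all. Per the methods, the 2 arrays of a group are technical RNA samples of 1 T2 line, and the plants sampled showed a clear flower phenotype. Petals of such plants are smaller with IaTCP1 and TCP1 and larger with CYC. The standard errors and p-values below therefore cover the spread between RNA samples, and a transgene and its line cannot be told apart. All 3 comparisons with the empty vector also share the same 2 control arrays.

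TCP proteins bind DNA through a basic helix-loop-helix domain, the TCP domain, and fall into class I and class II. Class II holds the CYC/TB1 genes, to which all 3 transgenes belong, and the CIN genes, to which TCP4 belongs. CIN genes limit cell proliferation in leaves and petals, TCP4 is a target of the microRNA miR319, and the TCP4 protein activates the jasmonate synthesis gene LOX2. TCP9 and TCP11 belong to class I, whose members are mostly linked to growth. TCP9 binds the promoter of ICS1, a salicylic acid synthesis gene, and CHE represses the clock gene CCA1.

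The class II gene TCP4 was lower in all 3 overexpression lines than with the empty vector, by a similar amount. The log2 signal of TCP4 was 6.79 on both IaTCP1 arrays, 6.84 and 6.95 on the TCP1 arrays and 6.92 and 6.99 on the CYC arrays, against 8.01 and 7.69 on the empty-vector arrays. No array of an overexpression line reached either control array, whereas the ranges of the TCP1 and CYC arrays overlapped. The mean change was −1.06 for IaTCP1, −0.96 for TCP1 and −0.89 for CYC on the log2 scale (SE 0.11 each, n = 2), or 0.479, 0.515 and 0.538 times the control level. Only the IaTCP1 change was past 2-fold, the minimum for a gene to enter the study's tables. The values of TCP1 and CYC, which fell short of 2-fold, differed from that of IaTCP1 by 0.11 and 0.17, about the size of the standard error.

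TCP4 levels did not separate the TCP1 from the CYC line. This difference of means uses none of the IaTCP1 or control arrays behind the listing of the gene. It was tested because the study's tables for TCP1 and CYC leave TCP4 out, which depended on the TCP1 and CYC arrays. The test is therefore not independent of the choice. Its interval and p-value take their spread from all 8 arrays, those that chose the gene included. The difference was −0.06 on the log2 scale with a 95% interval of −0.30 to 0.17 (limma adjusted p = 0.766). A difference of more than 0.30 in either direction thus lay outside the interval. With the fit on these 2 groups alone the limma adjusted p was 0.705. In this comparison 1.99% of all probe sets changed at least 2-fold with an adjusted p of 0.05 or less, the threshold used throughout. The order of TCP4 levels was IaTCP1, TCP1, CYC and empty vector, low to high. Both IaTCP1 arrays lay below every TCP1 and CYC array. The step of 0.11 from IaTCP1 to TCP1 was smaller than the gap of 0.12 between the TCP1 arrays. Only the step to the empty vector exceeded the gap between the arrays in both groups it joins.

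The control arrays set the precision of the TCP4 change. They differed by 0.33, and only 4.04% of all probe sets had a gap as large or larger between these 2 arrays, for which the median gap was 0.10. Within replicate 1 the change was −1.23 for IaTCP1, −1.18 for TCP1 and −1.09 for CYC, and within replicate 2 it was −0.90, −0.74 and −0.70. The control array of replicate 1 was the higher, and each difference within a replicate number exceeded the gap between the controls. Which lines lay past 2-fold depended on the control array: without replicate 1 of the empty vector the TCP4 change was −0.90, −0.79 and −0.73 for IaTCP1, TCP1 and CYC, all under 2-fold, and without replicate 2 of the empty vector it was −1.23, −1.12 and −1.06, all past 2-fold. Without replicate 2 of TCP1, the TCP1 change was −1.01.

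The class I gene TCP9 was higher in all 3 overexpression lines. Its log2 signal was 8.02 and 7.89 with IaTCP1, 7.70 and 7.81 with TCP1 and 8.34 and 8.24 with CYC, against 6.62 and 6.33 with the empty vector. The groups did not overlap. CYC plants had the highest level, followed by IaTCP1, TCP1 and the empty vector. The change against the empty vector was 1.48 for IaTCP1, 1.28 for TCP1 and 1.81 for CYC (SE 0.11, n = 2), a 2.78-fold, 2.42-fold and 3.52-fold higher level. Among the 3 lines, IaTCP1 and TCP1 are the neighbours that lay closest, 0.20 apart with SDs of 0.09 and 0.08, whereas CYC lay 0.34 above IaTCP1 and 0.54 above TCP1 (SE 0.11).

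The share of probe sets at least as far above the empty vector as TCP9 was 0.409% with IaTCP1, 0.418% with TCP1 and 0.339% with CYC, a description of the contrasts that chose the gene. The control arrays of TCP9 differed by 0.29, a gap reached by 6.64% of the probe sets, and the change within replicate numbers ran between 1.08 for TCP1 in replicate 1 and 1.91 for CYC in replicate 2.

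The class I gene TCP11 (AT5G08330) was past 2-fold higher with IaTCP1 alone. Its log2 signal was 8.68 on both IaTCP1 arrays, 7.80 and 7.82 on the TCP1 arrays and 7.56 on both CYC arrays, against 7.52 and 7.68 on the empty-vector arrays. The IaTCP1 arrays stood apart from all others, the TCP1 arrays lay just above the higher control, and the CYC arrays lay between the controls. The change was 1.08 for IaTCP1, or 2.12-fold, 0.21 for TCP1 and −0.03 for CYC (SE 0.09, n = 2). Only the 1.08 of IaTCP1 was past 2-fold, and the nearest value short of it was that of TCP1. The genes beside TCP11 on chromosome 5 were higher by a similar amount in the same line, as described below, and the copy number of this region in the IaTCP1 line was not tested. IaTCP1 plants exceeded TCP1 plants by 0.87 and CYC plants by 1.12 on the log2 scale (SE 0.09). Between IaTCP1 and CYC, 0.743% of all probe sets were called higher with IaTCP1.

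The means of the TCP1 and CYC lines differed by 0.25 in TCP11, without use of the IaTCP1 or control arrays. As for TCP4, the absence of TCP11 from the study's tables for these lines led to this test. The test is therefore not independent of the choice. The 95% interval was 0.06 to 0.44, its spread again taken from all 8 arrays. This difference did not pass the threshold (limma adjusted p = 0.0752, and 0.036 once the replicate number was added as a block, under 2-fold in either fit). With the fit on these 2 groups alone the limma adjusted p was 0.0761. Both TCP1 arrays were above both CYC arrays, and 0.607% of all probe sets were called higher with TCP1 than with CYC. The order of TCP11 levels was IaTCP1, TCP1, empty vector and CYC, high to low, and CYC and the empty vector did not differ beyond their spread.

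Against the empty vector, TCP9 and TCP11 were at least 2-fold higher and TCP4 at least 2-fold lower with IaTCP1, and TCP9 alone of the 3 was past 2-fold with TCP1 and with CYC. Over all probe sets, 0.976% were called higher and 2.35% lower with IaTCP1, 0.659% and 1.25% with TCP1, and 1.53% and 1.55% with CYC, by 2-fold and the adjusted p together, which was not applied to the 3 genes. The genes were chosen from these contrasts, and nothing is read from their number.

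**Figure D1:**
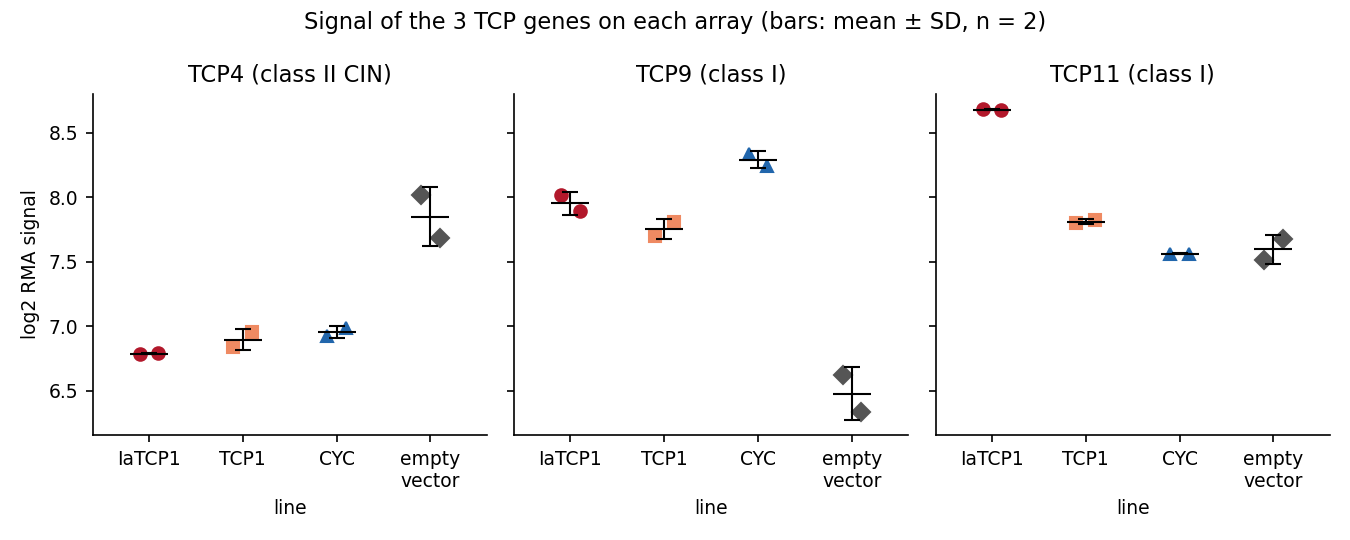
The log2 RMA signal (y axis) of TCP4, TCP9 and TCP11 on each array of the IaTCP1, TCP1, CYC and empty-vector lines (x axis); points are arrays, and the black bars give the mean ± SD of 2 arrays. TCP4 was highest and TCP9 lowest with the empty vector, whereas TCP11 stood apart with IaTCP1, at 8.68 on both arrays.

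**Figure D2:**
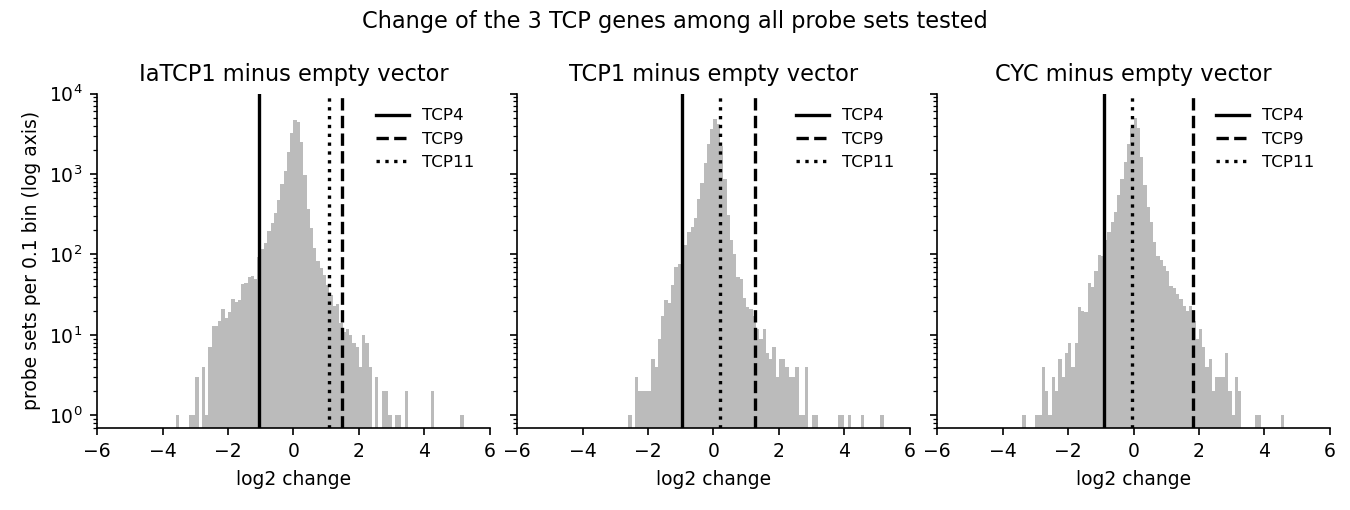
Number of probe sets (log y axis) in each 0.1 step of the log2 change against the empty vector (x axis) for the IaTCP1, TCP1 and CYC lines; vertical lines mark TCP4, TCP9 and TCP11. TCP9 lay in the upper tail in all 3 panels, at 1.48, 1.28 and 1.81, and TCP11 lay at 1.08 with IaTCP1, 0.21 with TCP1 and −0.03 with CYC.

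The genes beside TCP11 on chromosome 5 were higher with IaTCP1 as well. This was noticed after the values had been seen, and it is given without a test. Gene order was taken from RefSeq, and neighbours were limited to genes that the platform annotation names, since the study's tables name changed genes only. Of the 10 nearest such genes on each side of TCP11, 12 of 20 were at least 0.5 higher on the log2 scale with IaTCP1, whereas 0 of 20 were so with TCP1 and 0 of 20 with CYC. Over all 13217 genes placed in this way, 2.46% were that much higher with IaTCP1, 1.72% with TCP1 and 3.46% with CYC.

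These neighbours formed a nearly continuous stretch of the gene order. Between AT5G08270 and AT5G08580 the platform annotation names 23 of the 40 protein-coding genes, all 23 were higher with IaTCP1, and 20 of them by at least 0.5. The median change of the 23 genes was 0.96 with IaTCP1, a 1.94-fold higher level, against 0.06 with TCP1 and −0.02 with CYC. The 5 nearest named genes before the stretch changed by −0.05 to 0.27 with IaTCP1, and the 5 after it by −0.31 to 0.09. The limits of the stretch were placed at its first and last raised genes after these values had been seen. The low values beside it and the counts within it partly follow from that choice. The 3 genes of the stretch below 0.5 were AT5G08360 with 0.49, AT5G08540 with 0.35 and AT5G08460 with 0.08. AT5G08420, with 1.27, and AT5G08300, with 1.14, were among the genes above TCP11.

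TCP11 lay inside the range of its neighbours. Its change of 1.08 was exceeded by 5 of the 23 genes and was 0.13 above their median. The genes next to it in the order were AT5G08320, with 0.99, and AT5G08340, with 0.96. AT5G08565, the elongation factor gene SPT4-1 in RefSeq, changed by 0.93. AGAL1 (1.06) and ILP1 (1.06), which lie in the same stretch, were named only through the study's table for IaTCP1 and were not counted.

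The stretch was higher on each IaTCP1 array. Its median signal relative to the control mean was 0.96 on both IaTCP1 arrays, 0.06 on both TCP1 arrays and −0.04 and −0.02 on the CYC arrays, against −0.04 and 0.04 on the empty-vector arrays. Among medians over 15 consecutive named genes along all 5 chromosomes, 21 of 13147 reached 0.5 with IaTCP1, and each of these 21 included genes of this stretch. Outside it the highest such median was 0.29 with IaTCP1. No such median reached 0.5 with TCP1 or CYC, where the highest values were 0.28 and 0.44. Genomic DNA of the lines was not analysed here, so the copy number of the stretch was not tested, and a property of the IaTCP1 line cannot be told apart from an effect of its transgene.

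TCP4 and TCP9 did not share their change with their neighbours. With IaTCP1, 0 of the 20 nearest named genes of TCP4 were at least 0.5 lower, and their median change was 0.01. With TCP1 and CYC, 1 of 20 was that much lower in each line, and the medians were 0.00 and −0.07. The share of all named genes that much lower was not calculated, so only the medians are read for TCP4. Around TCP9, 1 of 20 was at least 0.5 higher with IaTCP1, 1 of 20 with TCP1 and 0 of 20 with CYC. Over all named genes placed, these shares were 2.46%, 1.72% and 3.46%. The medians around TCP9 were 0.08, 0.00 and 0.06.

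**Figure D3:**
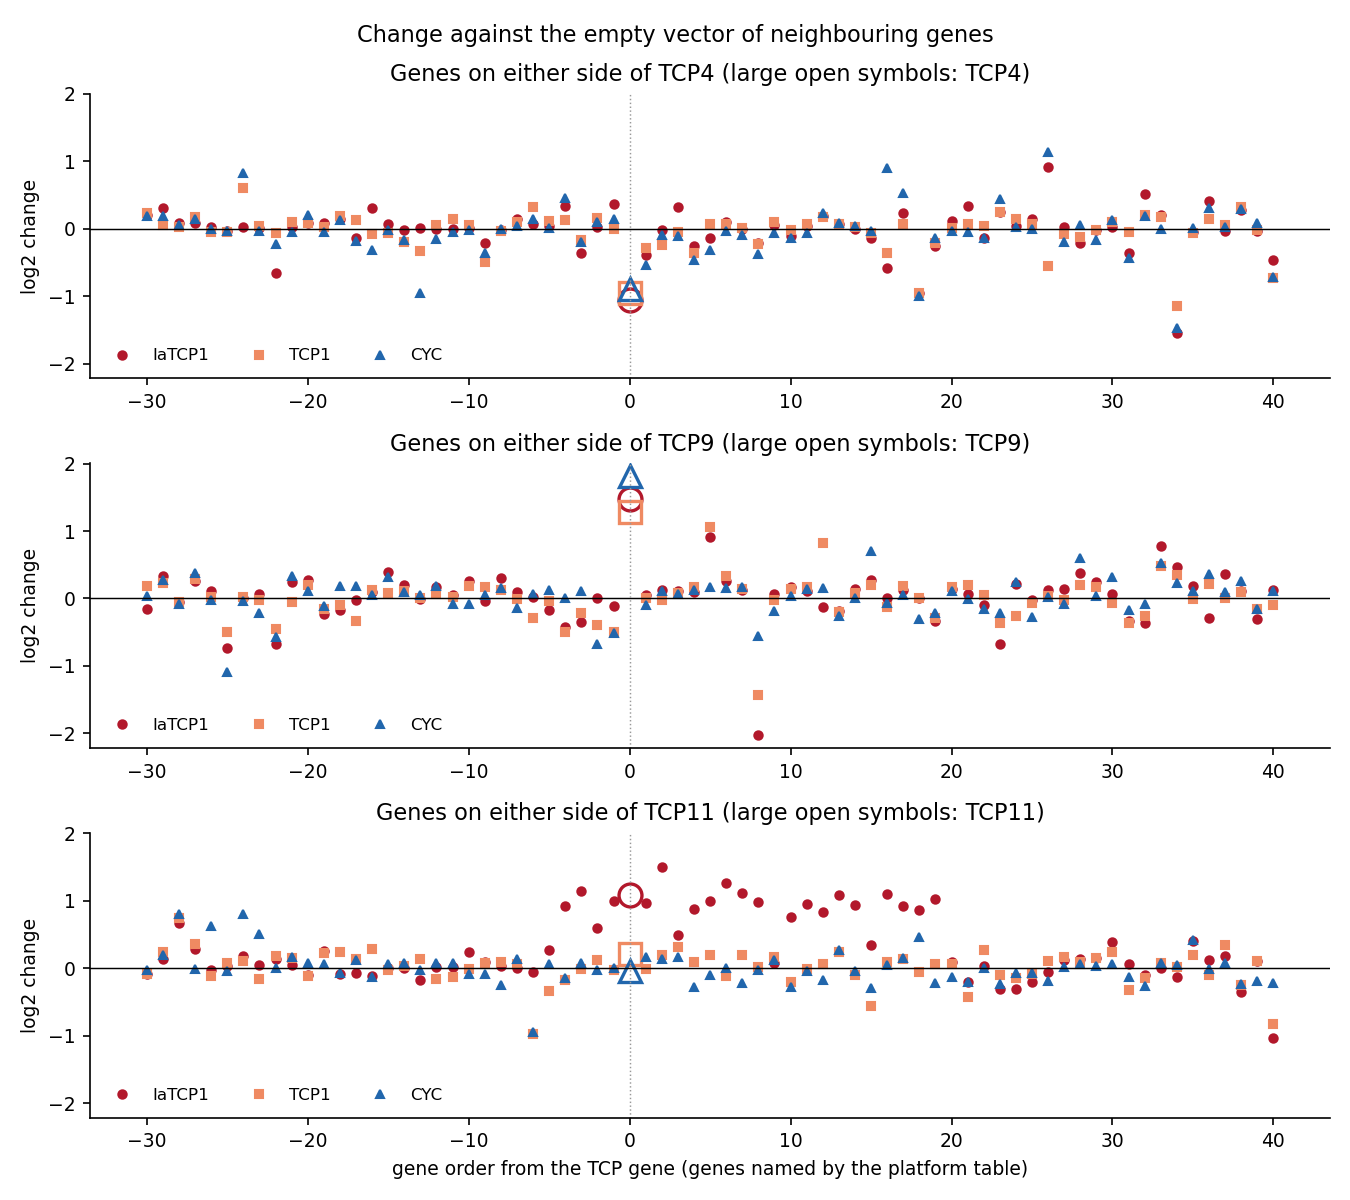
Log2 change against the empty vector (y axis) of the genes named by the platform table on either side of TCP4, TCP9 and TCP11, in chromosome order (x axis, rank of the gene from the TCP gene); large open symbols at 0 are the TCP genes. With IaTCP1 the genes at ranks −4 to 19 around TCP11 had a median change of 0.96, while those with TCP1 and CYC lay near 0.

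Other TCP genes could be compared to a limited extent. Of 24 family members, 5 were named by a table, the 3 above and 2 class I genes of the platform annotation, and the remaining genes, TCP1 among them, were not analysed here. TCP15, a class I gene linked to cell proliferation, had log2 signals of 8.25 and 8.09 with IaTCP1, 8.15 and 8.20 with TCP1 and 8.03 and 8.09 with CYC, against 8.68 and 8.57 with the empty vector. Every overexpression array was below both control arrays. The TCP15 change was −0.45, −0.45 and −0.57 (SE 0.09), with limma adjusted p = 0.00329, 0.00472 and 0.000684, and was under 2-fold in each line. The direction of TCP15 was thus that of TCP4 and opposite to that of TCP9, its fellow class I gene. AT2G37000, the locus that other sources name TCP11, was near the lower end of the signal range. It had 4.03 and 3.97, 3.88 and 3.98, and 3.82 and 4.16 on the IaTCP1, TCP1 and CYC arrays, against 3.97 and 3.86 with the empty vector. Its groups overlapped, and its differences of 0.02 to 0.09 did not pass the test (limma adjusted p = 0.630, 0.933 and 0.698).

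Genes linked to the CIN class in leaves and petals were described for a list of 21, of which the platform annotation names 6. With each of IaTCP1, TCP1 and CYC 1 of the 6 rose, 0 fell and 5 did not pass. Over all probe sets, 0.976%, 0.659% and 1.53% were called higher and 2.35%, 1.25% and 1.55% lower. The median change of the 6 was 0.06, −0.02 and 0.09, beside 0.05, 0.03 and 0.02 over all probe sets. The gene that rose was NGATHA2 (NGA2), which belongs to a group of B3 transcription factors that shape lateral organs and the style. The NGA2 signal was 7.91 and 7.96 with IaTCP1, 7.22 and 7.38 with TCP1 and 7.92 and 7.88 with CYC, against 6.29 on both control arrays. NGA2 changed by 1.64, 1.00 and 1.61 (SE 0.09, limma adjusted p = 5.56e-08, 8.42e-06 and 8.87e-08). The TCP1 change lay at the 2-fold limit, and without replicate 2 of TCP1 it was no longer called.

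The other NGATHA genes did not pass, with changes between −0.29 for NGA1 with IaTCP1 and 0.38 for NGA3 with IaTCP1. These 2 changes had limma adjusted p = 0.0409 and 0.0402 and were under 2-fold. RR16, the cytokinin response regulator gene ARR16 and a target of TCP4 in leaves, had −0.93, −0.85 and −0.93 (SE 0.09, limma adjusted p = 9.98e-06, 3.97e-05 and 1.25e-05), under 2-fold in each line. Without replicate 2 of CYC, 2 genes of this list passed with CYC in place of 1. RABBIT EARS (RBE), a repressor acting in petal development, differed by 0.28, 0.05 and 0.05 (limma adjusted p = 0.0363, 0.726 and 0.747), under 2-fold in each line. SHY2, the auxin response repressor gene IAA3, and KNAT1, a homeobox gene of the meristem, were named through the study's tables only. SHY2 had −1.03, −0.88 and −0.39 and KNAT1 had 0.87, 1.13 and 0.86.

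Of 16 jasmonate synthesis genes, 2 were named by the platform annotation, and LOX2 was not analysed here. JMT, which makes methyl jasmonate, fell with IaTCP1 and with CYC. Its signal was 8.83 and 8.72 with IaTCP1, 9.14 and 9.15 with TCP1 and 8.23 and 8.26 with CYC, against 9.84 and 9.87 with the empty vector. The groups did not overlap, and the JMT change was −1.08, −0.71 and −1.61 (SE 0.08, limma adjusted p = 1.25e-06, 8.10e-05 and 5.63e-08), the TCP1 change being under 2-fold. OPCL1, a ligase that activates a jasmonate precursor, had −0.27, −0.67 and −0.04 (SE 0.13, limma adjusted p = 0.179, 0.00373 and 0.868). It was under 2-fold and not called in any line. The list median was −0.67, −0.69 and −0.83 over these 2 genes. LOX4, a lipoxygenase named only through the table for IaTCP1, had −1.04, −0.56 and −0.46.

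Of 16 circadian clock genes, the platform annotation names GIGANTEA (GI), and CCA1 and LHY were not analysed here. The GI signal was 7.01 and 6.67 with IaTCP1, 7.45 and 7.16 with TCP1 and 7.14 and 7.02 with CYC, against 7.77 and 7.78 with the empty vector. All overexpression arrays were below the controls. The change of −0.94, −0.47 and −0.70 (SE 0.13) was under 2-fold in each line, with limma adjusted p = 0.000156, 0.0242 and 0.00159. Without replicate 1 of IaTCP1, GI was called with IaTCP1. PRR5, a clock repressor named through the tables for IaTCP1 and CYC, had −1.61, −0.77 and −1.70. The time of day of sampling was not compared here.

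The other lists added little. CYTC-1 and CYTC-2, cytochrome c genes bound by class I TCP proteins, lay between −0.15 and 0.24 and did not pass in any line, 2 of 8 genes of that list being named. None of the 8 salicylic acid synthesis genes, ICS1 included, was named by a table.

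**Figure D4:**
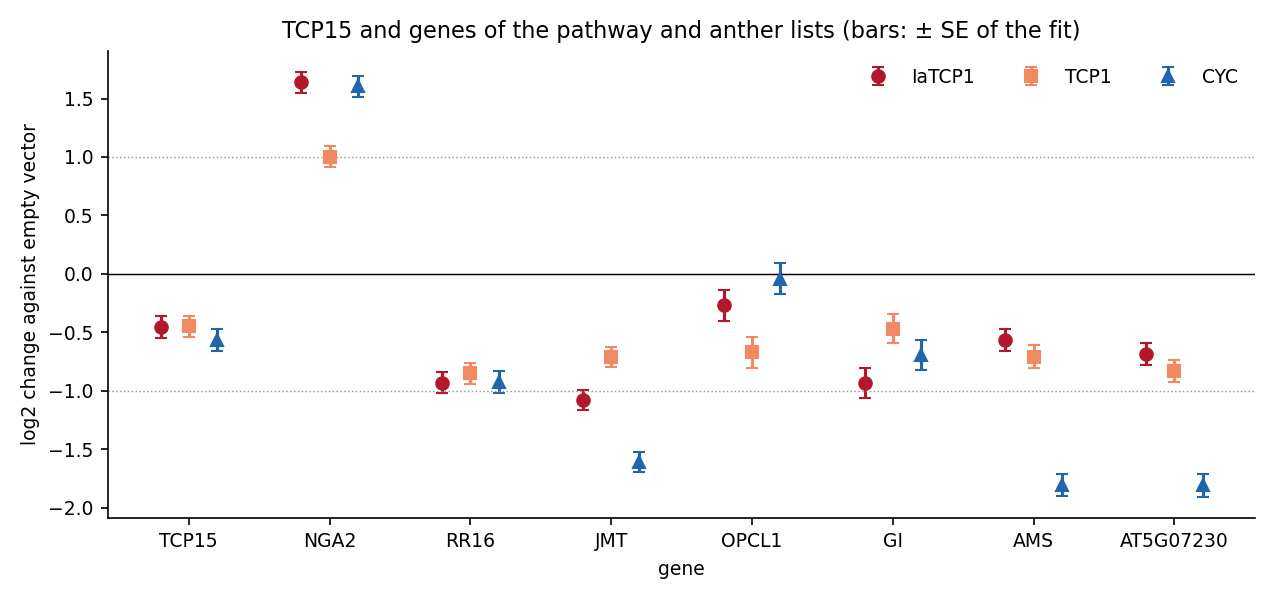
Log2 change against the empty vector (y axis) of TCP15 and of genes of the CIN, jasmonate, clock and tapetum lists (x axis) with IaTCP1, TCP1 and CYC; bars are ± the standard error of the fit, and dotted lines mark 2-fold. NGA2 lay at 1.64, 1.00 and 1.61, and JMT at −1.08, −0.71 and −1.61.

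Markers of floral cell types also differed between the lines, and their part in the TCP results was not tested. In whole inflorescences fewer cells of a type and less RNA per cell cannot be told apart. Of 17 pollen genes 7 were named, 5 of them through the study's tables, and their mean log2 signal lay at 5.55 on the IaTCP1 arrays, between 6.02 and 6.09 on the TCP1 arrays and between 6.70 and 6.74 on the CYC arrays, against 6.86 to 6.97 on the control arrays. The 5 genes had been listed by the study as lower with IaTCP1, so nothing is read from the order of these means. The 2 pollen genes of the platform annotation, the receptor kinase genes ANX1 and ANX2, were under 2-fold and not called in any line. With IaTCP1, TCP1 and CYC, ANX2 changed by −0.72, −0.46 and −0.20 (SE 0.08, limma adjusted p = 4.68e-05, 0.0025 and 0.127). ANX1, with a low control mean of 4.18, changed by −0.30, −0.20 and 0.06 (SE 0.09, limma adjusted p = 0.0303, 0.153 and 0.703).

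Of 7 tapetum genes 2 were named, the transcription factor gene AMS and AT5G07230 (A9). Both passed the threshold with CYC alone, with lower signals under 2-fold in the other lines. Over all probe sets, 2.35% were called lower with IaTCP1, 1.25% with TCP1 and 1.55% with CYC. Their mean signal was 9.42 to 9.57 with IaTCP1, 9.35 to 9.36 with TCP1 and 8.30 to 8.32 with CYC, against 10.10 to 10.14 with the empty vector. AMS changed by −0.57, −0.71 and −1.81 (SE 0.10, limma adjusted p = 0.00111, 0.000285 and 7.63e-08). AT5G07230 changed by −0.68, −0.83 and −1.81. The tapetum mean was below the control range in all 3 lines. Of the floral identity genes, UFO was not called in any line, and AP1, named through the table for CYC, had −0.62, −0.44 and −1.40. The green tissue genes RCA and PRK differed by −0.31 to −0.04 from the control and were not called.

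The named genes whose signal followed each TCP gene most closely were ranked by Pearson's r over the 8 arrays, among 2643 genes whose 4 group means span at least 0.5. The arrays share lines and controls, so r describes these 8 arrays only. For TCP4 these were 4CL8 (r = 0.984), a 4-coumarate-CoA ligase-like gene, GLC, AT5G54870, MLO6, a member of the powdery mildew susceptibility family, and AT2G17000 (r = 0.975). All 5 were lower in the 3 overexpression lines than in the control. For TCP9 they were the beta-galactosidase gene BGAL2 (r = 0.996), the peroxidase gene PRXR1, the GRAS-domain gene HAM4, the tubulin gene TUA1 and AT5G05960 (r = 0.983). For TCP11 they were UNE10 (r = 0.996), a basic helix-loop-helix gene, COBL5, AT5G08400, the receptor-like kinase gene CRK14 and AT5G08430 (r = 0.986). Some of these genes had low signals. The control mean was 4.21 for AT5G05960, 4.32 for COBL5 and 3.90 for CRK14, and AT2G17000 had a mean of 3.85 with IaTCP1.

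AT5G08400 and AT5G08430 lie in the stretch of chromosome 5 described above. UNE10, COBL5 and CRK14, the other companions of TCP11, lie elsewhere. They were named only through the study's table for IaTCP1, so a change with IaTCP1 was needed for them to be ranked. UNE10 had 8.80 and 8.95 on the IaTCP1 arrays and 7.41 and 7.42 on the TCP1 arrays, the same split as TCP11. Nothing is read from this likeness. MLO6 for TCP4 and BGAL2 and HAM4 for TCP9 were also named only through the study's tables of changed genes. The rankings moved with the settings and are a guide to the shape of each profile, since 62 genes had r over 0.95 with TCP4, 42 with TCP9 and 49 with TCP11.

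**Figure D5:**
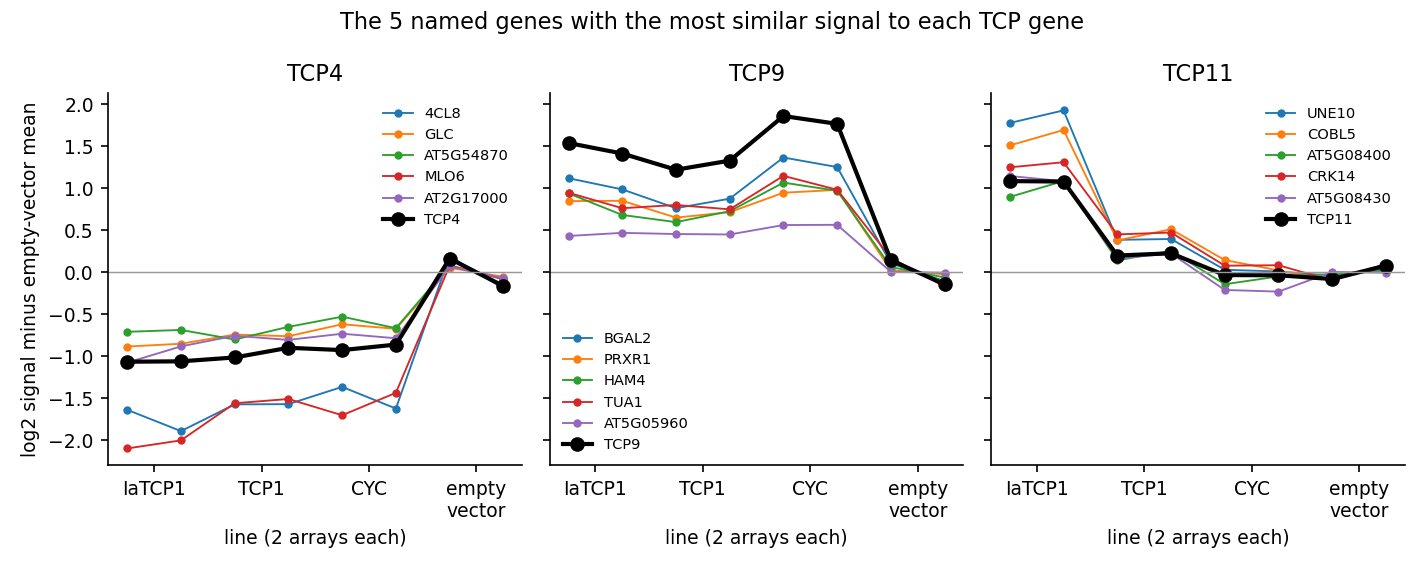
Log2 signal minus the empty-vector mean (y axis) on the 2 arrays of each line (x axis) for each TCP gene (black) and the 5 named genes with the highest r over 8 arrays (colours). The profiles of TCP4 and TCP9 set the empty vector apart from all 3 lines, and those of TCP11 set IaTCP1 apart.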

How the data were processed

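Per the labels and the methods, the authors normalized 8 ATH1 arrays by RMA in Partek and deposited log2 signals. Versions and the probe-level settings are not given in the sources used here. Of 22810 probe sets, 64 controls were left out. Genes were named by the platform table (13513 probe sets with 1 gene, 503 with several) or only through the study's tables of changed genes (428), and 8302 were not named. limma 3.58.1 in R 4.3.3 fitted 1 mean per group over all arrays (4 residual and 7.9 prior degrees of freedom), with Benjamini-Hochberg adjustment over all probe sets. Changed means at least 2-fold with an adjusted p of 0.05 or less. The fit was tested on simulated data. Figures were drawn with matplotlib 3.10.9. Named were the 3 genes, every other TCP gene a table names, up to 4 changed genes per list, and the 5 most similar profiles. Genes named only through the study's tables got no p. The members and the lists were chosen with earlier results of these data known. The array titles carry replicate numbers, and same-numbered arrays deviated together (r 0.16 to 0.52 over the 6 pairs of groups), so a fit with the number as a block was run beside the main one. The number of arrays limits the precision, and array medians lay between 6.48 and 6.56. Alternatives were other normalizations, a filter on low signals, other fits and leaving out each array. No sequence is shown.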

Additional observations from a re-analysis of the deposited data

Results flagged for a closer look

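For TCP11 (AT5G08330), both IaTCP1 arrays were above and both CYC arrays just below the control mean, with a difference of 1.12 on the log2 scale between IaTCP1 and CYC, which was not tested. The CYC arrays lay between the 2 control arrays, so no change with CYC is shown. The neighbours of TCP11 on chromosome 5 had a median change of 0.96 with IaTCP1, and the copy number of that region was not tested.

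The 2 named tapetum genes, of 7 listed, had lower levels with CYC than with the other transgenes. AMS was 1.24 higher with IaTCP1 than with CYC (limma adjusted p = 1.77e-06) and 1.10 higher with TCP1 than with CYC (limma adjusted p = 7.83e-06), with no overlap between the arrays. AT5G07230 was 1.13 higher with IaTCP1 than with CYC (limma adjusted p = 3.24e-06) and 0.98 higher with TCP1 than with CYC, which was under 2-fold (limma adjusted p = 1.55e-05).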

How the results depend on the processing

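Under cyclic loess and median centring, the changes of TCP4, TCP9 and TCP11 against the empty vector moved by less than the replicate spread and kept their direction. The block, the filter on low signals, the intensity trend and the fit on 2 groups leave a difference of group means as it is. These settings could not move the changes. Leaving out 1 of 2 arrays moves a group mean only within the spread of its arrays. With each array left out the changes kept their direction, apart from TCP11 with CYC (0.05 without replicate 2 of the empty vector). With the replicate number as a block, 757, 437 and 700 probe sets changed with IaTCP1, TCP1 and CYC, and 0 of 60 calls of list genes differed. The adjusted p of TCP1 minus CYC with the block was 0.712 for TCP4 and 0.036 for TCP11. Cyclic loess gave −0.21 for TCP4 and 1.09 for TCP11 between IaTCP1 and CYC, and 0.84 for TCP11 between IaTCP1 and TCP1. AT2G37000, at the lower end of the signal range, turned to −0.0038 with IaTCP1 and −0.081 with TCP1 under cyclic loess. With each array left out it ran between −0.0335 (without replicate 2 of the empty vector) and 0.0694 with TCP1, and between −0.0951 (without replicate 2 of CYC) and 0.2466 with CYC; without replicate 2 of TCP1 it was −0.0316. The filter on low signals removes AT2G37000, so it gave no value there.

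Without the fold minimum, 4646, 3579 and 4671 probe sets passed with IaTCP1, TCP1 and CYC and 3973 in TCP1 minus CYC. The class I list then had 1 gene (TCP15) and the clock list 1 gene (GI) with each transgene, the CIN list 5, 2 and 2, the jasmonate list 2 with TCP1, the pollen list 2 with IaTCP1 and 1 with TCP1, and the tapetum list 2 with IaTCP1 and 2 with TCP1. With each array left out, the clock list had 0 to 1 called with IaTCP1 (1 without IaTCP1 replicate 1), and the CIN list 0 to 1 with TCP1 (0 without TCP1 replicate 2) and 1 to 2 with CYC (2 without CYC replicate 2). The cause was not tested.

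The rankings by likeness were the least stable. Of the 5 genes named for TCP4, 0 were kept with Spearman's rho, 1 with the 4 group means and 2 with a span of at least 1; for TCP9 these were 1, 2 and 3, and for TCP11 3 and 2 with rho and group means. With each array left out, an alternative chosen after seeing the data, TCP4 kept 0 to 3, TCP9 3 to 5 and TCP11 2 to 5 of the 5.

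The stretch around TCP11 had 19 to 21 genes at least 0.5 higher with IaTCP1, with medians of 0.93 to 0.98, over the same settings, also run after seeing the data. Each transgene is 1 line, 2 control arrays serve every comparison, and most genes of the lists were not named by a table.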

Other observations

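The same medians over 15 consecutive named genes also reached −0.5 in a few places. With IaTCP1 a run on chromosome 3, AT3G28720 to AT3G29075, had 10 of 19 genes at least 0.5 lower, against 8 with TCP1 and 1 with CYC, and medians of −0.56, −0.29 and −0.02. A run on chromosome 1, AT1G23410 to AT1G23750, had 9, 11 and 7 of 25 genes at least 0.5 lower with IaTCP1, TCP1 and CYC. Its medians were −0.29, −0.34 and −0.23. The share of all named genes at least 0.5 lower was not calculated. Both runs were picked for their low values, so nothing is read from these counts. These were found after seeing the values and were not tested, and none of the 3 TCP genes lies in them.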
